A study of Mus musculus with 6 samples.

Results

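The ligands and receptors of axon guidance were measured by RNA sequencing in the arcuate nucleus (ARC) of the hypothalamus. The samples came from females with and without a conditional deletion of *Esr1*, the gene of estrogen receptor alpha, in cells of this region. Genes were taken by symbol: the semaphorins of classes 3 to 7, the plexins, the neuropilins, *Slit1* to *Slit3*, *Robo1* to *Robo4*, the Eph receptors, the ephrins, the netrins, the netrin-Gs, *Unc5a* to *Unc5d* and *Dcc*. Of the 24015 gene symbols counted, 71 matched, of which 37 encode ligands and 34 encode receptors. The default filter of edgeR on low counts kept 70 of them among 15236 genes tested, and the remaining gene, *Ntn5*, was at 0 to 0.314 CPM (counts scaled by TMM-adjusted library size) in the 6 libraries.

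The study compared 3 control females, which carried floxed *Esr1* alleles (Esr1fl/fl) and no Cre, with 3 conditional knockout females (Esr1fl/fl;Nkx2-1-Cre), called *Esr1*Nkx2-1Cre mutants here. All were adults. Their labels name a mixed background of CD-1, 129P2 and C57BL/6, whereas the methods name only CD-1 and 129P2 for these mice and an age of 11 to 20 weeks for both genotypes. Floxed *Esr1* alleles were shared by the 2 groups, and the mutants alone carried Cre, driven by *Nkx2-1*, a gene switched on early in ventral hypothalamic development, so the receptor was removed from this lineage and not from a single class of ARC neuron. A control with Cre and without floxed alleles was not analysed here.

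Guidance ligands are secreted or membrane-bound proteins that attract or repel growing axons through receptors on the growth cone. Semaphorins act through plexins, often with a neuropilin as the binding subunit, Slits act through Robo receptors, ephrins through Eph receptor tyrosine kinases, and netrins through DCC and the UNC5 receptors. In the adult brain the same families are used at synapses, in blood vessels and in glia, and semaphorins also guide the neurons that secrete gonadotropin-releasing hormone and shape their terminals in the median eminence, next to the ARC.

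The controls held *Esr1* at 64.5, 57.5 and 48.5 CPM and the mutants at 11.8, 9.55 and 7.06 CPM, in the order of replicates 1, 2 and 3 that is kept for every gene, so the libraries matched their labels (log2 fold change -2.59, standard error (SE) 0.18, edgeR quasi-likelihood adjusted p = 0.000884). The libraries held 11792440 to 17877137 counts on genes, and 3 counts corresponded to 0.175 to 0.248 CPM, a floor for counting error alone. All 8 listed ARC markers were detected in each library, with a summed level of 791 to 853 CPM in controls and 875 to 1261 CPM in mutants. This list holds *Kiss1* and *Tac2*, which the paper places among ARC markers repressed by estrogen, so its sum does not measure ARC tissue alone. *Tac2* was at 117, 99.3 and 127 CPM in controls and at 281, 157 and 161 CPM in mutants. Only *Tbx3* of the list had a lower mean in mutants (244 CPM in controls, 232 CPM in mutants). The libraries differed in tissue around the ARC. The pituitary pars tuberalis markers summed to 6.05 CPM in control replicate 2, against 465 to 753 CPM in the other libraries. The 7 ventromedial nucleus markers summed to 99.9 and 118 CPM in the replicates numbered 1 and to 162 to 335 CPM in the other 4 libraries. All 12 oligodendrocyte markers had higher means in the mutants, with sums of 723 to 1358 CPM in controls and 1786 to 1922 CPM in mutants. The 9 microglia markers summed to 296 to 304 CPM in controls and 374 to 403 CPM in mutants. Of these, 5 were higher at an unadjusted p under 0.05. The 9 tanycyte and ependymal markers summed to 603 to 982 CPM in controls and 1003 to 1242 CPM in mutants. Of these, 2 were higher at that threshold, *Vim* and *Dio2*. Most of these sums came from *Dio2* and *Col23a1*, and the mean of *Rax* was 14.2 CPM in controls and lower in mutants, at 12.7 CPM. No marker of these 3 lists was at 0, and the part of microglia and tanycytes in the values of the guidance genes was not tested. In bulk tissue, fewer cells of a type and less RNA per cell cannot be told apart, and the p-values measure only the spread between these 6 libraries.

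No member passed the adjusted test. With edgeR's quasi-likelihood test and Benjamini-Hochberg adjustment over all genes, 0 of the 70 tested guidance genes had an adjusted p under 0.05, where 0.118% of all tested genes did. DESeq2 called 1 member, *Sema5b*, at the same threshold, where it called 1.26% of its tested genes. Before adjustment, 13 of 70 members (18.6%) had an edgeR p under 0.05, against 8.85% of all tested genes. Of these, 5 were higher in mutants (all genes, 4.84%) and 8 were lower (all genes, 4.01%). The genotypes did not overlap for 14 of 70 members (20%), against 15.8% of all genes, with 7 members higher and 7 lower in every mutant (7.88% of all genes in each direction). The median log2 fold change over the members was 0.027, with 37 above 0 and 33 below, and that over all tested genes was 0.0036. An exact two-sided permutation test of 3 against 3 cannot give a p under 0.1 for a single gene.

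**Figure D1:**
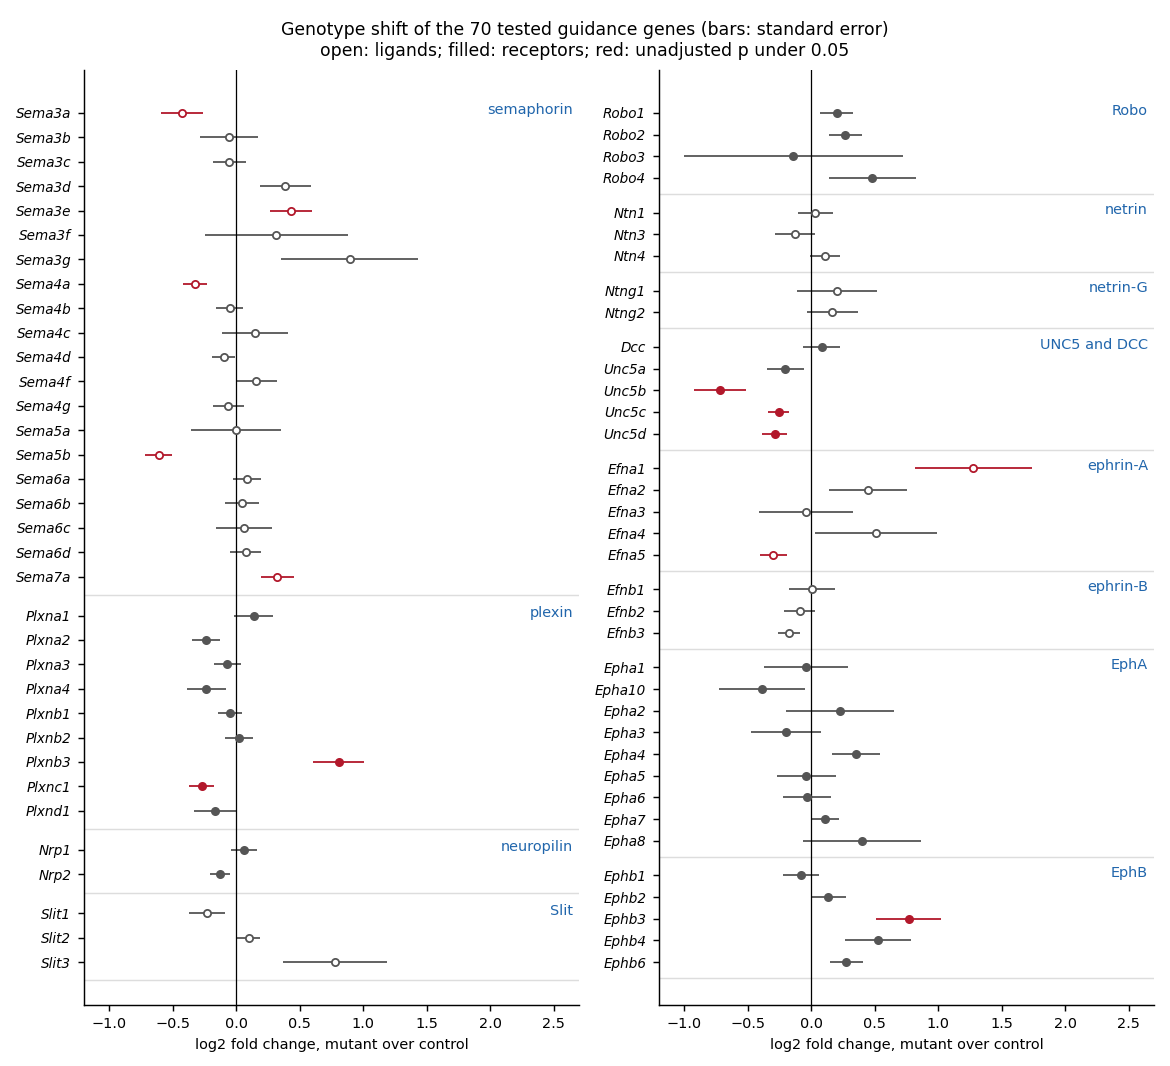
Log2 fold change of the 70 tested guidance genes, mutant over control (x axis), by gene and family (y axis), with bars of 1 standard error; open circles are ligands, filled circles receptors, and red marks an unadjusted p under 0.05 in edgeR's test. The shifts lie on both sides of 0, from -0.72 for *Unc5b* to 1.27 for *Efna1*, and *Unc5b*, *Unc5c* and *Unc5d* lie below 0.

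*Sema5b* had the smallest p of the members. It encodes a transmembrane semaphorin with thrombospondin repeats that repels axons and limits synapse number, and its position is chromosome 16, 35541231 to 35664818, plus strand, of NCBIM37 in the GENCODE annotation, used here for every gene position. It was at 33.0, 33.0 and 38.2 CPM in controls and at 21.5, 22.8 and 23.8 CPM in the mutants. Each mutant was below each control, with no overlap between the genotypes. The log2 fold change was -0.61 (SE 0.11), and the adjusted p was 0.0650 with edgeR's quasi-likelihood test and 0.00192 with DESeq2. Leaving out each library in turn gave log2 fold changes from -0.65 to -0.54 and adjusted p-values from 0.0629 to 0.282 with edgeR. *Sema5a*, the other class 5 semaphorin, was at 171, 258 and 257 CPM in controls and at 132, 250 and 303 CPM in mutants. Its genotype means were nearly equal (log2 fold change -0.0026, SE 0.35), and its lowest values were those of the replicates numbered 1 in both genotypes.

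Of the 4 UNC5 receptors, 3 were lower in every mutant, as were 7.88% of all tested genes. The UNC5 proteins are netrin receptors that mediate repulsion and also bind the FLRT adhesion proteins, and DCC is the netrin receptor that mediates attraction. *Unc5b*, which is also made by the endothelium of sprouting vessels (chromosome 10, 60225358 to 60294329, minus strand), was at 31.6, 36.2 and 19.8 CPM in controls and at 19.6, 16.8 and 16.9 CPM in mutants. *Unc5c* (chromosome 3, 141128528 to 141497888, plus strand) was at 209, 226 and 202 CPM in controls and at 163, 181 and 189 CPM in mutants. *Unc5d* (chromosome 8, 29757189 to 30329810, minus strand) was at 520, 532 and 518 CPM in controls and at 477, 375 and 433 CPM in mutants. In these 3 genes each mutant was below each control, but control replicate 3 of *Unc5b* lay only just above mutant replicate 1. The log2 fold changes were -0.72 (SE 0.21) for *Unc5b*, -0.26 (0.09) for *Unc5c* and -0.29 (0.10) for *Unc5d*. None passed the adjusted test, and edgeR's quasi-likelihood test gave adjusted p-values of 0.316, 0.386 and 0.384 in this order, against 0.0561, 0.305 and 0.204 from DESeq2.

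The other 2 members of the UNC5 and DCC group overlapped between the genotypes. *Unc5a* (chromosome 13, 55050772 to 55107379, plus strand) was at 55.2, 73.5 and 50.2 CPM in controls and at 47.0, 57.0 and 51.2 CPM in mutants (log2 fold change -0.20, SE 0.14, edgeR quasi-likelihood adjusted p = 0.742). *Dcc* was at 64.3, 79.7 and 100.4 CPM in controls and at 89.0, 81.0 and 88.4 CPM in mutants (log2 fold change 0.08, SE 0.15, edgeR adjusted p = 0.917). The summed level of the 4 UNC5 genes was 790 to 868 CPM in controls and 629 to 706 CPM in mutants, and *Unc5d* made up most of it. Without control replicate 2, which had few counts on the pituitary markers, the log2 fold changes were -0.54 for *Unc5b*, -0.21 for *Unc5c*, -0.28 for *Unc5d* and -0.03 for *Unc5a*. Across all 6 left-out libraries *Unc5b* ranged from -0.93, without control replicate 3, to -0.54, and its lowest adjusted p was 0.0551 with edgeR.

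**Figure D2:**
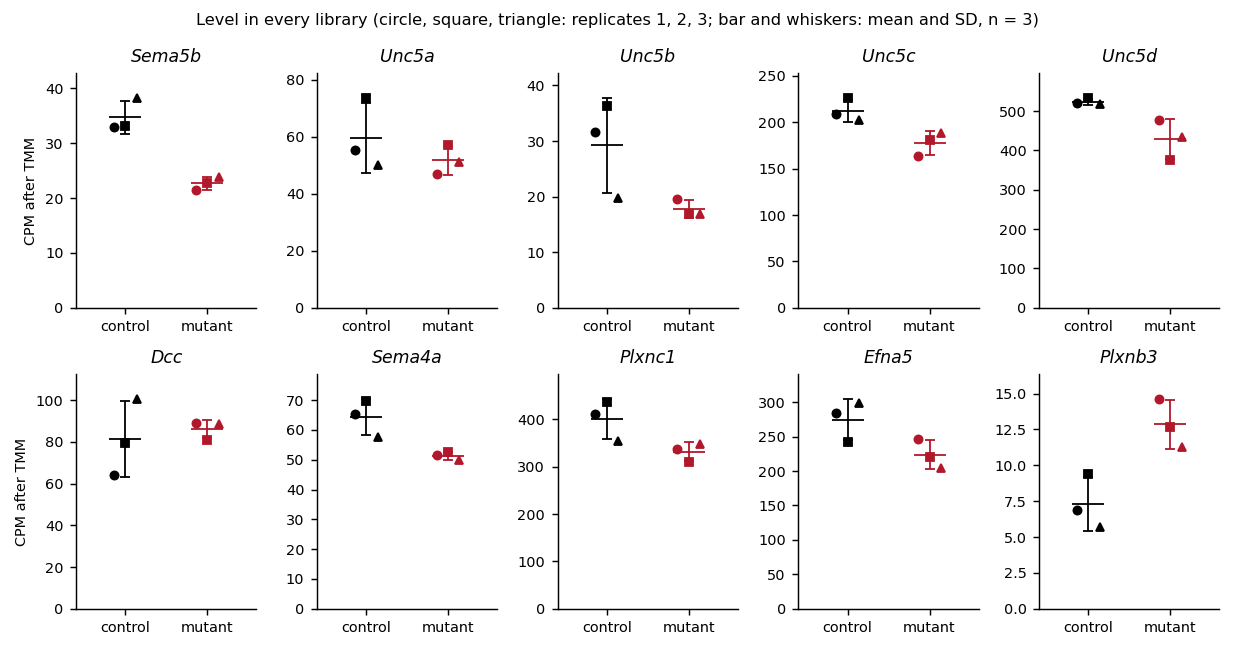
Level of 10 guidance genes in each library, as CPM after TMM normalization (y axis, starting at 0), for control and mutant females (x axis); symbols are replicates 1 to 3, and the line and whiskers are the mean and SD of 3 libraries. The mutants of *Sema5b* lie at 21.5 to 23.8 CPM, below all controls, those of *Plxnb3* lie above all controls, and *Dcc*, *Unc5a* and *Efna5* overlap.

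Promoters are shown because *Sema5b* and 3 of the 4 UNC5 genes were lower in every mutant, and *Unc5a* is shown beside them as the UNC5 gene that overlapped. *Sema4a*, *Plxnc1* and *Nrp2* were also lower in every mutant, but their promoters are not shown. For *Unc5d* no promoter was given in the RefSeq set used. RefSeq windows of the 250 bases before the transcription start were read on the GRCm38.p6 build for *Sema5b* (chr16:35541112-35541361, plus strand), *Unc5a* (chr13:54949161-54949410, plus), *Unc5b* (chr10:60831582-60831831, minus) and *Unc5c* (chr3:141465314-141465563, plus). Each is written 5′ to 3′ on the strand of its gene, with GC boxes (GGGCGG or, on the other strand, CCGCCC; overlapping matches are counted separately) in capitals.
Sema5b: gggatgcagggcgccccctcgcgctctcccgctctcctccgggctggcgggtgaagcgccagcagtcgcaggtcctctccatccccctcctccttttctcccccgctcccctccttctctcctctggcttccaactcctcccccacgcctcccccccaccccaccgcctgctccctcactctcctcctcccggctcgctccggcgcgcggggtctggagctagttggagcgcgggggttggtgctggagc
Unc5a: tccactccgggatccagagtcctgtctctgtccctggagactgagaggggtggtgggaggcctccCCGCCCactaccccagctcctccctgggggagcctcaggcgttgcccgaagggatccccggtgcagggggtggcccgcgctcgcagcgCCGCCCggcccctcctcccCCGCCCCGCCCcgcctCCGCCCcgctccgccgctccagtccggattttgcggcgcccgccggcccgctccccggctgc
Unc5b: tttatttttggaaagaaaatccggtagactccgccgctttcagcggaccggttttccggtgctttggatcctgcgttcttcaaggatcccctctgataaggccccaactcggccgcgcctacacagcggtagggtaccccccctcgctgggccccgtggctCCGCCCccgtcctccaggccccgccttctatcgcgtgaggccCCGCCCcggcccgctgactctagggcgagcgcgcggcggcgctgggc
Unc5c: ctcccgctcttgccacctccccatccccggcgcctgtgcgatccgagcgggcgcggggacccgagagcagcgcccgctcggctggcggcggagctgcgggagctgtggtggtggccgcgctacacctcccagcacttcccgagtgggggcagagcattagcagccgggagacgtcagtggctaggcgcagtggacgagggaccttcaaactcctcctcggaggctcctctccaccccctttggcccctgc
The *Unc5a* window held 5 GC boxes, the *Unc5b* window 2, and those of *Sema5b* and *Unc5c* 0. The repeated core of the estrogen response element (GGTCA or, on the other strand, TGACC) was found in none of these 4 windows. RefSeq promoters were given for 61 of the 71 members, 77 windows in all. Of these, 31.2% held this core, against 35.2% of all 32851 promoters and 34.2% of the 21263 promoters of protein-coding genes. The full palindrome, with its cores 3 bases apart, was in 0 of the 77 windows and in 21 of all promoters (0.0639%). GC boxes were in 70.1% of the members' windows, 32.7% of all promoters and 42.6% of those of protein-coding genes, and the median GC content was 64.4%, 52.4% and 55.6% in the same order. A match is a run of letters, and its absence from 250 bases says nothing about binding elsewhere.

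The semaphorins, the largest family with 20 genes, had 2 members higher (all tested genes, 4.84%) and 3 lower (all tested genes, 4.01%) at an unadjusted p under 0.05, and 0 after adjustment. *Sema4a* (chromosome 3, 88239881 to 88265104), a membrane semaphorin that also acts on immune cells, was at 65.4, 69.6 and 57.7 CPM in controls and at 51.7, 52.5 and 49.8 CPM in mutants. The genotypes did not overlap, with a log2 fold change of -0.32 (SE 0.09, edgeR quasi-likelihood adjusted p = 0.303). *Sema3a* (chromosome 5, 13125593 to 13602565), a secreted repellent that binds neuropilin-1, was at 40.3, 26.8 and 37.6 CPM in controls and at 25.6, 29.7 and 22.4 CPM in mutants. Control replicate 2 fell within the mutant range, and the log2 fold change was -0.43 (SE 0.17, edgeR adjusted p = 0.480) with all libraries and -0.59 without that control (adjusted p = 0.128).

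*Sema3e* and *Sema7a* were the semaphorins above 0 at an unadjusted p under 0.05. *Sema3e* (chromosome 5, 14025276 to 14256689), the ligand of plexin-D1, was at 10.1, 10.5 and 13.8 CPM in controls and at 15.2, 17.3 and 13.9 CPM in mutants. The genotypes were separated by the narrow gap between control replicate 3 and mutant replicate 3 (log2 fold change 0.43, SE 0.16, edgeR quasi-likelihood adjusted p = 0.469). *Sema7a*, named here after its values were seen, encodes a membrane-anchored semaphorin that binds plexin-C1 and integrins and acts on hormone-secreting terminals of the median eminence. It was at 10.4, 10.9 and 10.5 CPM in controls and at 13.4, 13.5 and 12.9 CPM in mutants. The genotypes did not overlap, on 146 to 215 counts per library, at a log2 fold change of 0.32 (SE 0.13, edgeR adjusted p = 0.497). Its receptor *Plxnc1* (chromosome 10, 94253617 to 94407212) was at 411, 436 and 355 CPM in controls and at 337, 309 and 348 CPM in mutants. It was lower in every mutant, but control replicate 3 lay only just above mutant replicate 3 (log2 fold change -0.27, SE 0.10, edgeR adjusted p = 0.412).

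The remaining semaphorins had log2 fold changes from -0.10, for *Sema4d*, to 0.89, for *Sema3g*, and their genotypes overlapped. *Sema3g* had 4 to 26 counts per library, and its log2 fold change was 0.43 without control replicate 2 and 1.53 without control replicate 1. The 4 class 6 semaphorins, transmembrane ligands of the A plexins, were all between 0.05 and 0.08. *Sema6d* (chromosome 2, 123915705 to 124493506) had the highest level of the family and was at 259, 315 and 346 CPM in controls and at 284, 324 and 361 CPM in mutants. These overlapping values gave a log2 fold change of 0.08 (SE 0.12, edgeR quasi-likelihood adjusted p = 0.910), with a sign that turned when control replicate 1 or mutant replicate 3 was left out.

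Of the 9 plexins, 1 was higher (all tested genes, 4.84%) and 1, *Plxnc1*, was lower (4.01%) at an unadjusted p under 0.05. *Plxnb3* (chromosome X, 71002429 to 71017853), the plexin of mature oligodendrocytes and a receptor of semaphorin 5A, was at 6.90, 9.37 and 5.67 CPM in controls and at 14.6, 12.7 and 11.3 CPM in mutants. Each mutant was above each control, with a log2 fold change of 0.81 (SE 0.20), and the adjusted p was 0.215 with edgeR's quasi-likelihood test and 0.0673 with DESeq2. Left-out libraries gave 0.65 to 1.03, the latter without control replicate 2 (adjusted p = 0.0638, edgeR). The summed oligodendrocyte markers were 869, 1358 and 723 CPM in the controls and 1922, 1839 and 1786 CPM in the mutants, and they ranked the 6 libraries in the same order as *Plxnb3*. All 12 of these markers were higher in the mutants at an unadjusted p under 0.05, 2 passed the adjusted test and none was at 0. Their part in the shift of *Plxnb3* was not tested. Of the other 3 members listed for oligodendrocytes, *Sema4d* was at 66.1, 77.6 and 67.5 CPM in controls and at 68.3, 62.1 and 66.8 CPM in mutants, and *Sema6a* and *Sema5a* had log2 fold changes of 0.08 and -0.0026.

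The A plexins, receptors for class 3 semaphorins together with a neuropilin, gave log2 fold changes of 0.14 for *Plxna1*, -0.24 for *Plxna2*, -0.07 for *Plxna3* and -0.24 for *Plxna4*, with overlapping genotypes. *Nrp1* (chromosome 8, 130882973 to 131029362), which binds semaphorin 3A and vascular endothelial growth factor, was at 81.4, 65.6 and 75.0 CPM in controls and at 79.2, 70.4 and 82.2 CPM in mutants (log2 fold change 0.06, SE 0.10, edgeR quasi-likelihood adjusted p = 0.910). *Nrp2*, which prefers semaphorin 3F, was at 116, 110 and 113 CPM in controls and at 109, 103 and 98.4 CPM in mutants. It was lower in every mutant by a small amount (log2 fold change -0.13, SE 0.08, edgeR adjusted p = 0.678).

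The 11 members known from the migration and terminals of gonadotropin-releasing hormone neurons were *Sema3a*, *Sema3e*, *Sema3f*, *Sema4d*, *Sema7a*, both neuropilins, *Plxna1*, *Plxna3*, *Plxnb1* and *Plxnd1*. At an unadjusted p under 0.05, 2 were higher (*Sema3e*, *Sema7a*) and 1 was lower (*Sema3a*), where 8.85% of all tested genes passed in either direction, and 0 passed after adjustment with edgeR or DESeq2. Their median log2 fold change was -0.05. *Plxnb1*, the receptor of semaphorin 4D, was at 132, 154 and 123 CPM in controls and at 135, 130 and 130 CPM in mutants, with no separation of the genotypes.

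No Slit or Robo gene had an unadjusted p under 0.05. *Slit2* (chromosome 5, 48374394 to 48697521), a secreted repellent, was at 266, 282 and 311 CPM in controls and at 282, 310 and 327 CPM in mutants, and its receptor *Robo1* (chromosome 16, 72663394 to 73046340) at 74.2, 98.0 and 88.3 CPM in controls and at 87.4, 96.1 and 115 CPM in mutants. The genotypes overlapped in both genes, with log2 fold changes of 0.10 (SE 0.09) and 0.20 (0.13). *Slit3* showed the widest spread of the Slits, at 15.3, 26.1 and 30.8 CPM in controls and at 22.4, 50.3 and 50.5 CPM in mutants (log2 fold change 0.78, SE 0.41, edgeR quasi-likelihood adjusted p = 0.659). Its lowest value in each genotype was that of the replicate numbered 1. *Robo4*, the Robo receptor of endothelium, and *Robo3*, which acts in commissural axons, were low, at 2.97 to 9.82 and 0.175 to 3.37 CPM, and both were lowest in control replicate 2.

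The replicates numbered 1 were the 2 lowest libraries for 13 of 70 members (18.6%), against 11.5% of all tested genes. These were *Sema3d*, *Sema5a*, *Sema6d*, *Plxna1*, *Plxna4*, *Slit2*, *Slit3*, *Robo1*, *Epha4*, *Epha5*, *Epha8*, *Efna3* and *Ntng1*. The summed ventromedial nucleus markers were likewise lowest in these libraries, at 99.9, 221 and 162 CPM in controls and at 118, 270.5 and 335 CPM in mutants, with 7 of 7 detected in each library. For *Tac1*, *Sox14* and *Adcyap1* of this list, the 2 lowest libraries were not the replicates numbered 1. *Tac1* was at 50.9, 60.0 and 40.1 CPM in controls and at 37.0, 28.1 and 38.6 CPM in mutants. *Ntng1*, a membrane-anchored netrin-G that binds the NGL-1 adhesion protein, was at 45.2, 69.1 and 80.1 CPM in controls and at 47.9, 84.9 and 90.7 CPM in mutants. *Epha4* (chromosome 1, 77363760 to 77511663), an Eph receptor for ephrins of both classes, was at 53.9, 70.3 and 76.5 CPM in controls and at 62.6, 96.6 and 96.5 CPM in mutants. Differences between libraries of one genotype exceeded those between the genotypes in both genes, with log2 fold changes of 0.20 (SE 0.32) and 0.35 (0.19), and edgeR's quasi-likelihood test gave adjusted p-values of 0.906 and 0.654. The part of the dissected region in these values was not tested.

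**Figure D3:**
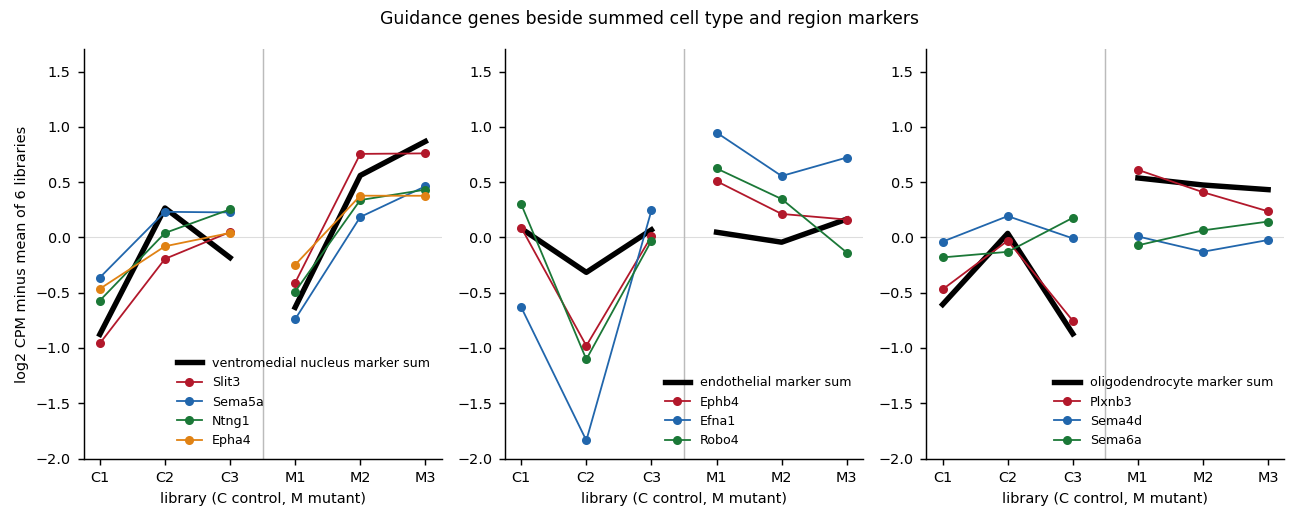
Log2 CPM minus the mean of the 6 libraries (y axis) for selected guidance genes and for the summed markers of the ventromedial nucleus, endothelium and oligodendrocytes (black), in each library (x axis; C control, M mutant); lines join libraries of a genotype only to help the eye, and the genes were chosen after their values were seen. *Slit3*, *Sema5a*, *Ntng1* and *Epha4* are lowest in the replicates numbered 1 within each genotype, *Ephb4*, *Efna1* and *Robo4* are lowest in control replicate 2, and *Plxnb3* follows the oligodendrocyte sum while *Sema4d* and *Sema6a* do not.

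Ephrins are membrane-bound ligands that signal on cell contact, the A class mostly to EphA receptors and the B class to EphB receptors. *Efna5*, which repels axons in topographic maps, was at 284, 242 and 298 CPM in controls and at 246, 220 and 205 CPM in mutants. The ranges overlapped, since control replicate 2 lay below mutant replicate 1 (log2 fold change -0.30, SE 0.10, edgeR quasi-likelihood adjusted p = 0.402). *Efna1* (chromosome 3, 89075655 to 89085064), an ephrin induced in vessels by inflammatory signals, was at 0.938, 0.407 and 1.72 CPM in controls and at 2.81, 2.14 and 2.40 CPM in mutants. These low values did not overlap, and the log2 fold change of 1.27 (SE 0.46, edgeR adjusted p = 0.425) was 0.88 without control replicate 2 and 1.87 without control replicate 3. The other A ephrins, *Efna2*, *Efna3* and *Efna4*, were at 0.407 to 3.39 CPM with overlapping genotypes.

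All 3 ephrin-B genes overlapped between the genotypes. *Efnb3* (chromosome 11, 69367594 to 69373707), which is made by neurons and by the midline of the spinal cord, was at 110, 111 and 105 CPM in controls and at 91.6, 106 and 90.7 CPM in mutants (log2 fold change -0.18, SE 0.09, edgeR quasi-likelihood adjusted p = 0.597). *Efnb2*, an arterial marker that is also neuronal, was at 130, 110 and 119 CPM in controls and at 135, 102 and 99.6 CPM in mutants.

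None of the 9 EphA genes had an unadjusted p under 0.05 or genotypes that did not overlap. Of the 5 EphB genes, 3 were higher in every mutant, as were 7.88% of all tested genes. *Ephb3* (chromosome 16, 21204828 to 21223378), a receptor tyrosine kinase, was at 2.88, 2.56 and 2.30 CPM in controls and at 3.22, 4.96 and 4.93 CPM in mutants (log2 fold change 0.76, SE 0.26, edgeR quasi-likelihood adjusted p = 0.395). *Ephb6* (chromosome 6, 41555481 to 41570508), which lacks kinase activity, was at 15.1, 14.3 and 13.8 CPM in controls and at 18.5, 18.3 and 15.6 CPM in mutants (log2 fold change 0.28, SE 0.13, edgeR adjusted p = 0.571). *Ephb4*, the venous partner of ephrin-B2, was at 11.6, 5.53 and 10.97 CPM in controls and at 15.5, 12.6 and 12.2 CPM in mutants. Its log2 fold change of 0.52 (SE 0.26) was 0.25 without control replicate 2, where it was lowest.

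Of the 9 members known from blood vessels, namely *Sema3g*, *Plxnd1*, *Nrp1*, *Robo4*, *Ephb4*, *Efnb2*, *Unc5b*, *Efna1* and *Ntn4*, 1 was higher (*Efna1*) and 1 lower (*Unc5b*) at an unadjusted p under 0.05 (all tested genes, 8.85% in either direction), and 0 passed after adjustment. Control replicate 2 was the lowest library for 5 of these 9 and for 14 of all 70 tested members (20%), against 21.7% of all tested genes. The 9 endothelial markers, of which none was at 0, summed to 137 CPM in that library, to 179 and 181 CPM in the other controls and to 166 to 192 CPM in the mutants. Control replicate 2 was the lowest library for *Pecam1*, *Tek*, *Cdh5* and *Egfl7*, but not for *Cldn5*, *Flt1*, *Slco1a4*, *Ly6c1* and *Itm2a*. The same library had few counts on the pituitary markers, and the part of either in these values was not tested.

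The 3 tested netrins overlapped between the genotypes. *Ntn4* (chromosome 10, 93103426 to 93209952), a netrin of basement membranes, was at 23.1, 20.1 and 20.01 CPM in controls and at 20.8, 24.1 and 23.0 CPM in mutants (log2 fold change 0.11, SE 0.12, edgeR quasi-likelihood adjusted p = 0.855). *Ntn1*, the ligand of DCC and the UNC5 receptors, was at 17.0, 14.8 and 14.8 CPM in controls and at 14.9, 17.8 and 14.9 CPM in mutants. The log2 fold change of *Ntn1* was 0.03 (SE 0.13).

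Levels of different genes were compared as CPM per kilobase of merged exon. *Efna5*, at 68.2 ± 7.28 (SD, n = 3) CPM per kilobase in controls, *Unc5d* at 58.5 ± 0.859 and *Plxnc1* at 56.9 ± 5.92 were the highest of the 71, and *Unc5d* and *Plxnc1* differed by less than the spread of *Plxnc1*. *Efnb3* followed at 34.1 ± 1.08 and *Sema6d* at 29.0 ± 4.20, which lay further apart than the SD of either, but with the longest transcript as the length *Sema6d* (47.6) and *Slit2* (35.6) were above *Efnb3* (34.1). *Slit2* was the leading Slit at 19.0 ± 1.52, *Ntng1* the leading netrin-G at 13.7 ± 3.78, *Epha4* the leading EphA gene at 10.6 ± 1.85, *Robo1* the leading Robo at 9.09 ± 1.25 and *Ntn4* the leading netrin at 5.64 ± 0.470. *Nrp1* at 12.5 ± 1.34 and *Nrp2* at 11.9 ± 0.323 did not differ beyond their spread, and neither did *Ephb6* at 3.82 ± 0.183 and *Ephb1* at 3.29 ± 0.506. By the same length, the leading member became *Nrp2*, *Epha5* and *Ephb1* in the neuropilin, EphA and EphB families. By CPM, 16 of the 71 members were over 100 in controls, 34 from 10 to 100, 17 from 1 to 10 and 4 under 1.

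**Figure D4:**
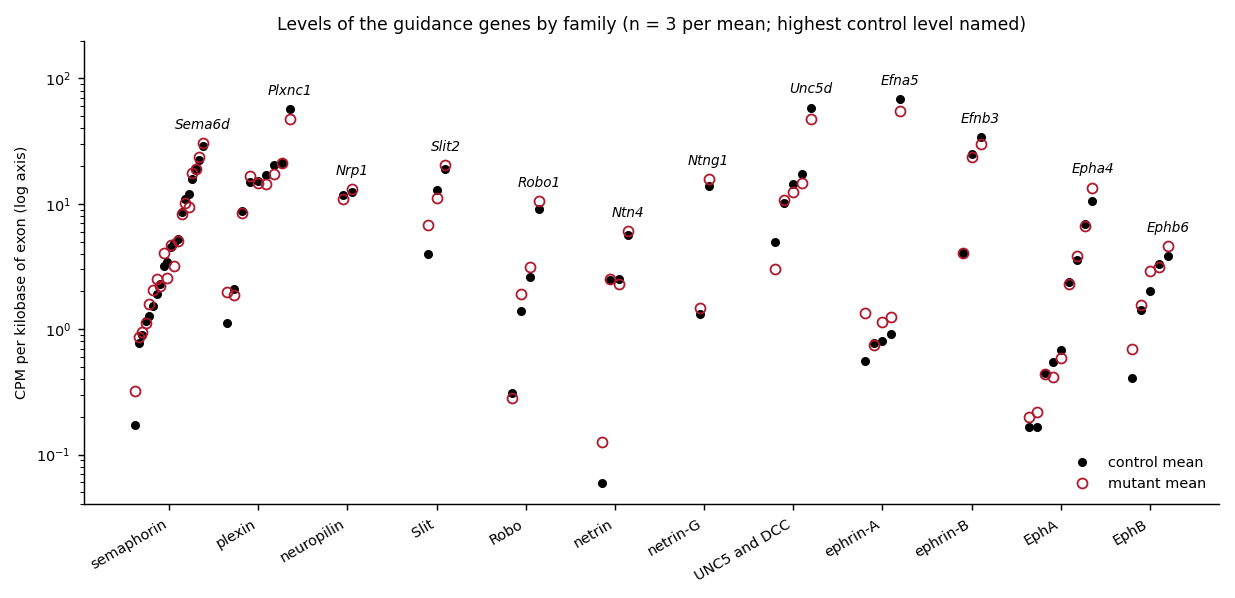
Mean level of each of the 71 guidance genes in CPM per kilobase of exon (y axis, log scale) by family (x axis), filled for controls and open for mutants, each a mean of 3 libraries, with the highest control level of each family named. *Efna5*, *Unc5d* and *Plxnc1* stand at 56.9 to 68.2 in controls, and within most families the levels span more than the difference between the genotypes.

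The other genes of these pathways were followed in lists of co-receptors, adaptors and effectors, of which 91 of 92 genes were counted and tested. None had an adjusted p under 0.05 with edgeR's quasi-likelihood test, and 3 were higher and 6 lower at an unadjusted p under 0.05, near the background of 8.85%. At that unadjusted threshold, the 16 genes of the netrin list had 0 higher and 1 lower, the 12 of the Slit list 1 and 2, the 22 of the semaphorin list 1 and 1, the 15 of the Eph list 1 and 1, and the 27 shared effectors 0 and 1. *Pak3*, a kinase that links Rac to the cytoskeleton at synapses, was at 677, 771 and 703 CPM in controls and at 519, 531 and 594 CPM in mutants. It was lower in every mutant (log2 fold change -0.39, SE 0.09), with an adjusted p of 0.166 from edgeR and 0.00846 from DESeq2, the only gene of the lists past the threshold there. Among partners of the UNC5 receptors, picked after their values were seen, the ligand *Flrt2* was at 92.1, 90.0 and 107.7 CPM in controls and at 80.3, 117 and 109 CPM in mutants. The netrin co-receptor *Dscam* was at 143, 163 and 141 CPM in controls and at 112, 122 and 137 CPM in mutants, lower in every mutant (log2 fold change -0.27, SE 0.10, edgeR quasi-likelihood adjusted p = 0.422).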

How the data were processed

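ARC tissue of 3 control and 3 mutant females was microdissected from a 2 mm hypothalamic section, and amplified complementary DNA was sequenced as single-end 50 bp reads. The authors deposited HTSeq counts per gene symbol, not normalized. The submitters' processing notes list TopHat2 2.1.0, HTSeq 0.6 and mm9, while the methods name NCBI37/mm10. Whether counting used strand, and how reads on overlapping genes were treated, is not given in the sources used here. No row was without a gene name.

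Counts were tested with edgeR 4.0.16 in R 4.3.3 (TMM, default filter, robust quasi-likelihood fit, mutant against control, Benjamini-Hochberg over all tested genes, threshold 0.05). Standard errors are the absolute log2 fold change over the square root of F. DESeq2 1.42.0, limma 3.58.1 (voom), RLE, other filters, a replicate block and left-out libraries were alternatives. Only the main edgeR fit, and none of the alternatives, was tried on simulated counts. No pair of libraries agreed within sampling noise (chi-square per degree of freedom at least 6.90). CPM were scaled with TMM. Lengths and positions came from the GENCODE annotation of NCBIM37, in which 69 members matched 1 gene each. *Efna5* and *Ntng1* match more than 1 and have no position here.

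Genes named are those past the threshold in edgeR or DESeq2, the 12 smallest p-values under 0.05 and the leading member of each family per kilobase. *Sema7a*, *Sema5a*, *Unc5a*, *Dcc*, *Slit3* and others were added after their values were seen. Members and lists were chosen with earlier results of these data known.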

Additional observations from a re-analysis of the deposited data

How the results depend on the processing

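The count of members with an adjusted p under 0.05 was 0 with edgeR, RLE normalization, limma voom, a minimum of 10 counts in every library and each left-out library (0 to 0). It was 1 with DESeq2 (all genes, 1.26%) and 1 without a filter beyond 1 count in any library (all genes, 0.471%). The member was *Sema5b* in both (adjusted p = 0.0130 in the latter, edgeR). A replicate block in edgeR gave 2, *Sema5b* (adjusted p = 0.0300) and *Slit3* (adjusted p = 0.0192), where 123 of 15236 genes (0.807%) passed, and 22 members (11 higher, 11 lower; all genes, 12.04%) had an unadjusted p under 0.05 against 13 without the block. Same-numbered libraries had correlated deviations across genes of 0.281, 0.0466 and -0.0026, mutant replicate 3 correlated best with control replicate 2, and the number was not taken to pair them. Left-out libraries gave 9 to 15 members at an unadjusted p under 0.05, against 6.01% to 9.82% of all tested genes. The 9 were without mutant replicate 2 (all genes, 6.01%), and 15 were found without control replicate 1 (9.82%) or mutant replicate 1 (8.44%). The median log2 fold change over the tested members was 0.0065 to 0.042 in these fits. The genotypes did not overlap for 17 to 25 members with a library left out, against 22.5% to 27.7% of all genes, since fewer libraries overlap less often. The 25 were without mutant replicate 1 (all genes, 27.3%). With plain CPM the genotypes did not overlap for 11 of 70 members (all genes, 14.8%). Of the other guidance genes, DESeq2 called 1, *Pak3*, and the left-out fits 0 to 0. Among the 22 named genes, 4 of 263 values under alternatives changed sign: *Sema6d* without control replicate 1 (-0.035) and without mutant replicate 3 (-0.013; range with a library left out -0.035 to 0.17), *Nrp1* without control replicate 2 (-0.017; -0.017 to 0.14) and *Ntng1* without control replicate 1 (-8.29e-05; -8.29e-05 to 0.44). The cause of these changes was not tested. Levels under 3 counts, 0.175 to 0.248 CPM, were not detectable at these depths.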
